A study of Homo sapiens with 2 samples.

Results

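Polyamine metabolism was examined through 9 genes: SAT1, SAT2, ODC1, SRM, SMS, SMOX, OAZ1, OAZ2 and AZIN1. They were chosen by gene symbol and selected on the measured difference of SAT1: the set holds the probe sets whose platform gene symbol is a gene of polyamine synthesis, acetylation, oxidation or the antizyme system, and SAT1 stands at its centre because its log2 difference between these arrays was already known to be large. All 9 of the 9 were found, among 14884 named genes, and each was read by 1 probe set. The cells were of AsPC-1, an established line from a human adenocarcinoma of the pancreas, and grew in 3 dimensions under a collagen gel overlay in medium with serum and antibiotics. The uncompressed culture had no load for 24 h, and the compressed culture was held under 2.9 mmHg for 24 h. Both groups are the same line, and the labels give neither a genetic change nor an added agent beyond the medium. Total RNA of each culture went onto 1 GeneChip Human Gene 2.0 ST array, so every value below is 1 reading, with no replicate, no error of its own, no test and no p-value. Pressure and any other difference between the 2 cultures cannot be told apart.

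Polyamines are the small cations putrescine, spermidine and spermine, which bind nucleic acids and are needed for growth. Ornithine decarboxylase (ODC1) makes putrescine, and the synthases SRM and SMS extend it to spermidine and then to spermine with aminopropyl groups from decarboxylated S-adenosylmethionine (SAM). The acetyltransferase SAT1 marks spermidine and spermine for export or oxidation, SMOX oxidises spermine directly, and antizymes (OAZ1, OAZ2) send ODC1 to the proteasome unless an antizyme inhibitor such as AZIN1 captures them. Pancreatic tumour cells are known for active polyamine synthesis and uptake.

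Levels are deposited log2 RMA signals, and a difference is compressed minus uncompressed on that log2 scale. A gene was kept where its mean over both arrays reached 4.79, the median over named genes, and 7442 genes were kept, all 9 polyamine genes among them. A gene was counted as higher or lower where its difference reached 0.58, or 1.5-fold. On that rule 294 kept genes (3.95%) were higher and 83 (1.12%) lower, around a median difference of 0.01 and with the middle 50% of genes between -0.15 and 0.18. As a yardstick within these arrays, 135 protein-coding genes with exactly 2 probe sets, both above 4.79, gave an SD of 0.19 for the difference of a single probe set. That SD holds disagreement between probe sets but not the spread between cultures, and none of the 9 genes has a second probe set to compare. Of the markers written down for the line, 6 of 8 named epithelial genes were kept, with KRT19 at 10.78 and 10.79 and EPCAM at 10.77 and 10.43 on the uncompressed and compressed arrays. KRT7 (3.36 and 3.78) and CLDN4 (4.80 and 4.73) were not kept, because their means lay under 4.79. TSPAN8, another epithelial marker of the list, read 8.31 and 7.52, a difference of -0.79 that passed the rule as lower. Its part in the values below was not tested. All 3 named endothelial markers lay under the floor, as did the fibroblast gene DCN and the monocyte gene CD14. The matrix gene LUM (9.75 and 9.39) and the lysosomal gene CD68 (8.45 and 9.26), listed as fibroblast and immune markers, were above it, and their part in the values below was not tested.

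Of the 9 polyamine genes, 1 (SAT1) was higher under compression by the 1.5-fold rule and 0 were lower, beside 3.95% and 1.12% of all kept genes. Those differences were part of the choice of genes, so the counts are a description. The median difference of the 9 genes was 0.00, against 0.01 over all kept genes, and 4 differences were positive, 4 negative and 1 exactly 0. Differences of less than 0.25 in either direction were found for 6 of the 9 genes, as for 67.9% of all kept genes. The large difference thus lay in 1 enzyme of polyamine acetylation, and the synthesis and antizyme genes differed by at most 0.21 in either direction.

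**Figure D1:**
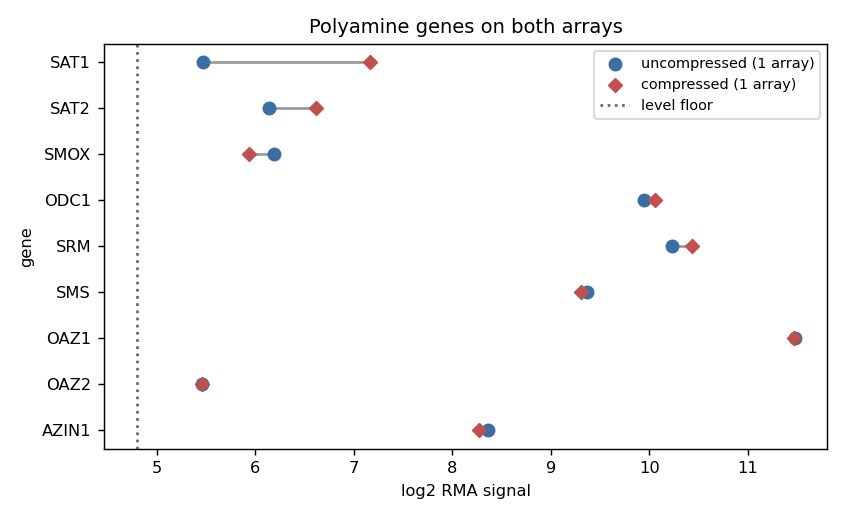
Log2 RMA signal (horizontal axis) of each polyamine gene on the uncompressed array (circles) and the compressed array (diamonds), 1 array each, with the level floor of 4.79 dotted. SAT1 moves from 5.46 to 7.16 while the 2 symbols of OAZ1 and OAZ2 coincide; positions of different genes along the axis are not comparable because probe sets differ in brightness.

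SAT1 encodes spermidine/spermine N1-acetyltransferase, the inducible and rate-limiting enzyme of polyamine breakdown. Its probe set, 17102129, read 5.46 without and 7.16 with compression. The compressed reading was the higher one by 1.70 on the log2 scale, or 3.25-fold, and both readings were above the floor. Of the 7442 kept genes, SAT1 had the 13th largest positive difference, and 10 protein-coding genes, SAT1 included, differed by as much or more. Among the 1860 kept genes of like mean level (6.25 to 7.25), 78 (4.19%) were at least 1.5-fold higher and 5, SAT1 included, reached its size. Across the 6 other ways of processing the values, the difference of SAT1 lay between 1.66 and 1.70. SAT1 messenger RNA is known to exist in a productive form and in a form with an extra exon that leads to its decay, and 1 value for the gene does not separate them. Enzyme activity of SAT1 is also set by translation and protein turnover, which an array does not read. In RNA of a whole culture, more SAT1 RNA per cell and a larger share of cells with SAT1 RNA cannot be told apart.

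The promoter of SAT1 is shown because SAT1 is the polyamine gene past 1.5-fold, and metal response elements were searched because the title of the study names intracellular zinc. RefSeq sequence (GRCh38.p14) was used for 7 of the 9 genes, in 9 windows of the 250 bases before an annotated start. SMOX had no promoter entry, and AZIN1 was not searched because its chromosome was left out. Each window was searched on both strands for 7 motifs: the metal response element core to which the zinc sensor MTF1 binds, in the forms TGCGCNC and TGCACNC, the antioxidant response element core TGACNNNGC, the AP-1 site TGANTCA, the E-box CACGTG, the GC box GGGCGG and the CRE core TGACG. No matches of different motifs overlapped (0 pairs in the 9 windows). In the sequences below, capitals mark matches to the first 5 of these, written 5′ to 3′ on the strand of the gene; GC boxes and CRE cores stay in lower case.
SAT1, chrX:23782923-23783172, plus strand: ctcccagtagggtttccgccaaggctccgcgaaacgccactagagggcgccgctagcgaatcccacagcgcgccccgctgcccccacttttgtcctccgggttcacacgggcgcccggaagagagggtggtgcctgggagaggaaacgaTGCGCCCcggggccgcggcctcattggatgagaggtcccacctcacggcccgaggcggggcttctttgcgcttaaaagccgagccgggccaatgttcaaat
SAT2, chr17:7627877-7628126, minus strand: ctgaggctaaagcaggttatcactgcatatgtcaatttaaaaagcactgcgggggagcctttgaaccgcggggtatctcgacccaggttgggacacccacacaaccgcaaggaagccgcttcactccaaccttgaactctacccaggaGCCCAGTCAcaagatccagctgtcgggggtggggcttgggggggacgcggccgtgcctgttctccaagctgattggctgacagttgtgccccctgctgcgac
The window of SAT1 held 1 metal response element core, at bases -101 to -95 before the start, and none of the other motifs. This core in either form occurs in 24.8% of 34943 windows of the same length, so a match is common. Counted by gene over any of its windows, 2356 kept genes held this core and 3528 did not. The match in SAT1 is a description of letters, not a site shown to bind. OAZ1, with a difference of -0.01 between the arrays, held 2 such cores, at -232 to -226 and -184 to -178, both on the opposite strand.

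**Figure D2:**
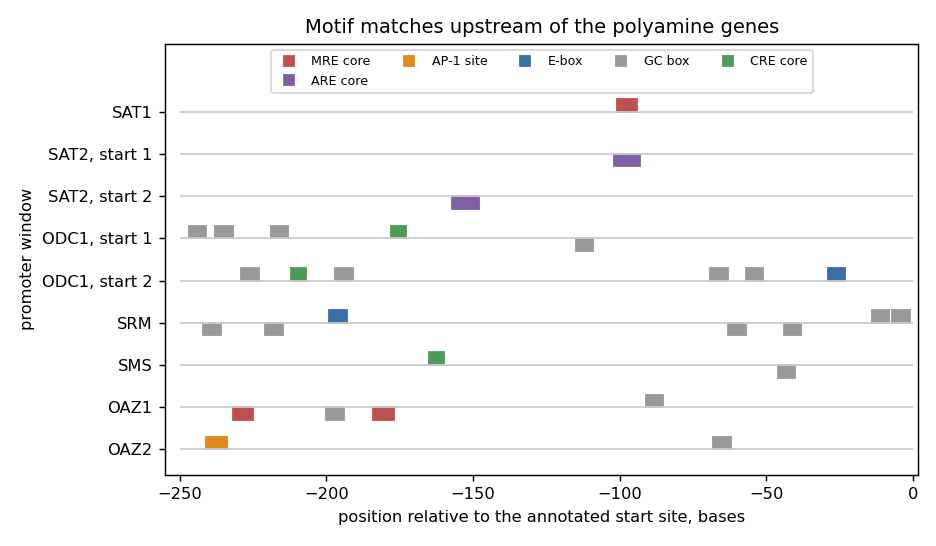
Position in bases relative to the annotated start (horizontal axis) of motif matches in the 9 windows of 250 bases of 7 polyamine genes, with boxes above the line for the gene's strand and below it for the opposite strand. SAT1 has its 1 match, a metal response element core, at -101; the 2 E-boxes are in windows of ODC1 and SRM, which also hold the most GC boxes.

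SAT2, the paralog of SAT1, acetylates thialysine and has little activity on polyamines. It read 6.14 without and 6.61 with compression, a difference of 0.47 (1.39-fold), which did not reach the 1.5-fold rule. The difference of SAT2 was thus smaller than that of SAT1 by 1.23, and it was larger in size than those of 90.8% of kept genes. In the SAT2 window above, the match in capitals is an antioxidant response element core on the opposite strand, at -102 to -94, a motif that 10.9% of all windows hold. A second annotated start of SAT2 lies close by, and its window holds the same match at -157 to -149. Counted by gene, 930 kept genes held an antioxidant response element core in a window and 4954 did not.

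SMOX, spermine oxidase, turns spermine into spermidine with release of hydrogen peroxide. It read 6.19 without and 5.93 with compression. The compressed reading was lower by 0.25 (difference -0.25), the most negative of the 9 genes, and 31.6% of kept genes had a larger difference in either direction. SAT1 and SMOX had differences of opposite sign, 1.70 and -0.25, but that of SMOX did not reach the 1.5-fold rule. PAOX, the oxidase that acts on the products of SAT1, read 4.98 and 4.87, just above the floor, with a difference of -0.11.

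ODC1, the decarboxylase that opens polyamine synthesis, read 9.95 without and 10.06 with compression. That is a difference of 0.11 (1.08-fold), and 66.0% of kept genes differed by more. SRM, spermidine synthase, read 10.23 and 10.43, a difference of 0.21 (1.15-fold). SMS, spermine synthase, read 9.37 and 9.30, a difference of -0.07. Each synthesis enzyme was within 0.21 of equality, and their signs were mixed. After a repeated quantile normalization, taken over named probe sets alone, ODC1 was at 0.02 and SRM at 0.07.

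ODC1 and SRM are known targets of MYC, which binds E-boxes with its partner MAX. The 30 bases around the E-box of each window are shown, with the E-box in capitals, because they are the only 2 of the 9 windows that hold one.
ODC1, second annotated start, chr2:10448024-10448053, minus strand: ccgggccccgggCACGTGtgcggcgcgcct
SRM, chr1:11060200-11060229, minus strand: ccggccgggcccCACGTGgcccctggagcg
The E-box lay at -29 to -24 before the second start of ODC1 and at -199 to -194 before the start of SRM, and 6.32% of all windows hold one. Both genes also had the most GC boxes, 4 in each of the 2 windows of ODC1 and 6 in that of SRM, a motif found in 42.5% of all windows. Their windows were rich in G and C, at 78.8% and 82.4% for ODC1 and 82.0% for SRM, against a median of 58.0% over all windows and 66.4% for SAT1. Over any window of a gene, 666 kept genes held an E-box and 5218 did not. For the GC box these numbers were 4464 and 1420. MYC itself read 8.96 without and 8.77 with compression (-0.19), and MAX 5.02 and 5.29 (0.26).

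OAZ1 encodes the major antizyme, whose synthesis needs a ribosomal frameshift that polyamines promote, so its control is largely translational. It read 11.48 without and 11.47 with compression, a difference of -0.01. After repeated quantile normalization OAZ1 was at -0.21, still under the 1.5-fold rule. OAZ2, a second antizyme, read 5.45 on both arrays, with identical deposited values. Such exact ties were found for 182 of the 7442 kept genes and for 3118 of all 53617 probe sets. AZIN1, the antizyme inhibitor, read 8.36 and 8.28, a difference of -0.09. The antizyme genes as a group thus showed differences between -0.09 and 0.00.

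**Figure D3:**
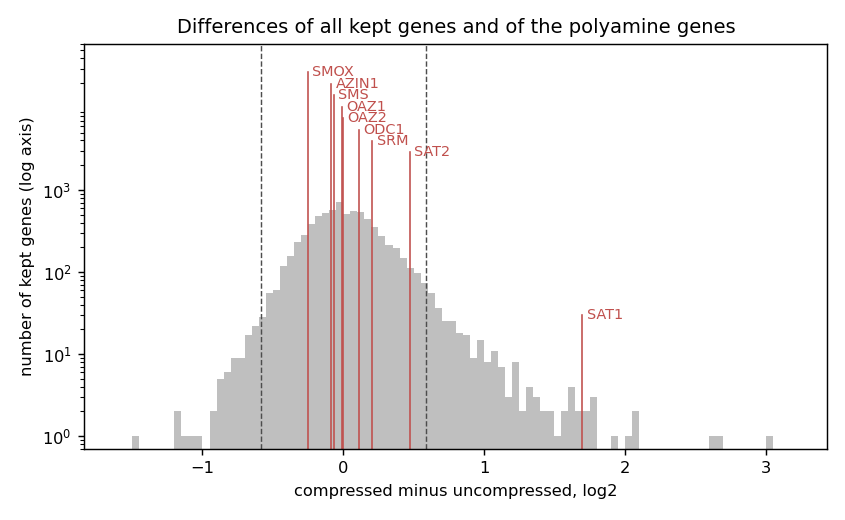
Number of kept genes (vertical, log axis) by difference compressed minus uncompressed on the log2 scale (horizontal, bins of 0.05), with the 9 polyamine genes as labelled lines whose heights only separate the labels, and dashed lines at 1.5-fold. SAT1 stands at 1.70 in the right tail, and the other 8 lie between -0.25 and 0.47, inside the dashed lines.

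The wider pathway was described with 6 lists of 58 genes in all, of which 37 had a named probe set and 30 were kept. Of these 30, MXD1 was the 1 gene at least 1.5-fold higher and 0 were lower, beside 3.95% and 1.12% of all kept genes, and their median difference was 0.05. The other 21 listed genes were not analysed here.

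Supply of the aminopropyl donor was covered in part, by 7 kept genes of SAM decarboxylation, S-adenosylhomocysteine hydrolysis and methylthioadenosine salvage. Of the 7, 0 passed in either direction (median -0.07). The SAM synthesis genes MAT1A, MAT2A and MAT2B had no named probe set and were not analysed. AMD1, the decarboxylase that makes the donor, read 8.81 without and 8.74 with compression (-0.07). The more negative values were -0.30 for AHCY, which hydrolyses S-adenosylhomocysteine, -0.22 for ENOPH1 and -0.18 for APIP, enzymes of methionine salvage. MTAP, which cleaves the methylthioadenosine left by SRM and SMS, differed by 0.16 and ADI1, another salvage enzyme, by 0.15. Of the 9 genes of the ornithine and arginine supply list, 4 were kept and 0 passed (median -0.06). ARG1, ARG2 and ALDH18A1 of this list had no named probe set and were not analysed. AGMAT, agmatinase, read 7.81 and 7.51 (-0.30), OAT, which interconverts ornithine and glutamate semialdehyde, differed by -0.11, ASL by -0.02 and ASS1 by 0.11. OTC (2.39 and 2.17) and GATM (3.07 and 3.36) were under the floor on both arrays.

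Among further genes of breakdown and antizyme control, PAOX was the 1 of 5 that was kept. AOC1, the secreted diamine oxidase that degrades putrescine, read 4.62 without and 4.09 with compression, under the floor, so no fold is given. SATL1 (4.72 and 4.54), OAZ3 (4.03 and 3.90) and AZIN2 (3.93 and 3.83) were under it too.

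Of the transport list, 4 of 15 genes were named and 3 kept, and 0 passed. ATP13A2, a lysosomal pump that moves polyamines into the cytosol, read 6.85 without and 7.42 with compression. Its difference of 0.57 (1.49-fold) was just under the rule and larger in size than those of 94.5% of kept genes. ATP13A3, a related polyamine pump, differed by 0.11 and GPC1, a proteoglycan linked to polyamine uptake, by 0.10, while the second probe set of GPC1 differed by -0.03. ATP13A4 read 3.13 on both arrays, under the floor. Of the hypusine pathway, which uses spermidine to modify the translation factor eIF5A, all 5 genes were kept and 0 passed. EIF5A2 differed by 0.24, DHPS, deoxyhypusine synthase, by 0.11, DOHH by -0.05, EIF5A by -0.07 and EIF5AL1 by -0.16. DOHH (4.95 and 4.90), EIF5A (4.98 and 4.90) and EIF5AL1 (5.13 and 4.97) read just above the floor. EIF5A and EIF5AL1 are near-identical sequences that their probes may not separate.

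The list of transcription factors drawn up for SAT1 and ODC1 had 10 kept genes. Of these, 8 had a positive difference, beside 50.8% of all kept genes. Among the 8, PPARG differed by only 0.01 and was at -0.02 after repeated quantile normalization. Of the 10, MXD1 passed 1.5-fold as higher, beside 3.95% of all kept genes. The median difference of the 10 was 0.25, against 0.01 over all kept genes. MXD1, a MAX partner that opposes MYC, read 6.12 without and 6.72 with compression (0.60, 1.51-fold). That call ended after loess correction (0.56) and after repeated quantile normalization (0.53). NFE2L2, which encodes NRF2, an activator reported at SAT1, read 6.76 and 7.27 (0.50). MTF1, the zinc sensor, read 6.79 and 7.16 (0.37), and SP1 7.85 and 8.16 (0.31). Whether MTF1 or any other listed factor acts on SAT1 or ODC1 in these cells was not tested. MYC (-0.19) and PPARA (-0.09) had negative differences.

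**Figure D4:**
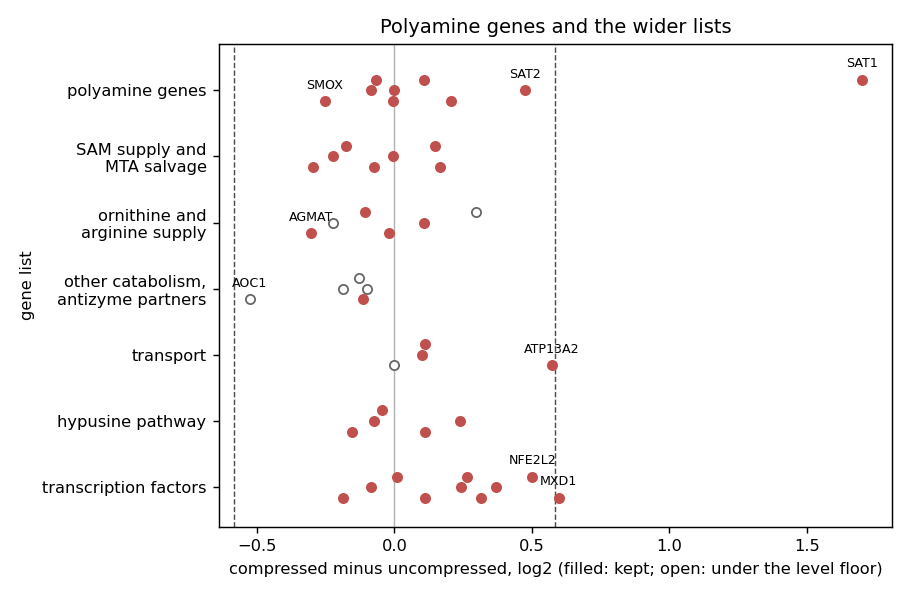
Difference compressed minus uncompressed on the log2 scale (horizontal) of each named gene of the polyamine genes and the 6 wider lists (rows; vertical offsets only separate points), filled where kept and open where under the level floor, with dashed lines at 1.5-fold. SAT1 (1.70) and MXD1 (0.60) lie beyond the dashed lines, with ATP13A2 (0.57) just inside.

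The 6 kept protein-coding genes whose difference was nearest to that of SAT1 over the 2 arrays were MT1G, THBS1, EID3, IGFBP1, ARC and USP17L12. Their differences lay within 0.10 of that of SAT1. MT1G, a metallothionein that binds zinc, read 9.67 without and 11.38 with compression (1.70), and THBS1, thrombospondin-1, read 5.58 and 7.28 (1.71). EID3 and USP17L12 were under the floor in the uncompressed culture. A single difference places many unrelated genes side by side, so this likeness covers size alone.

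**Figure D5:**
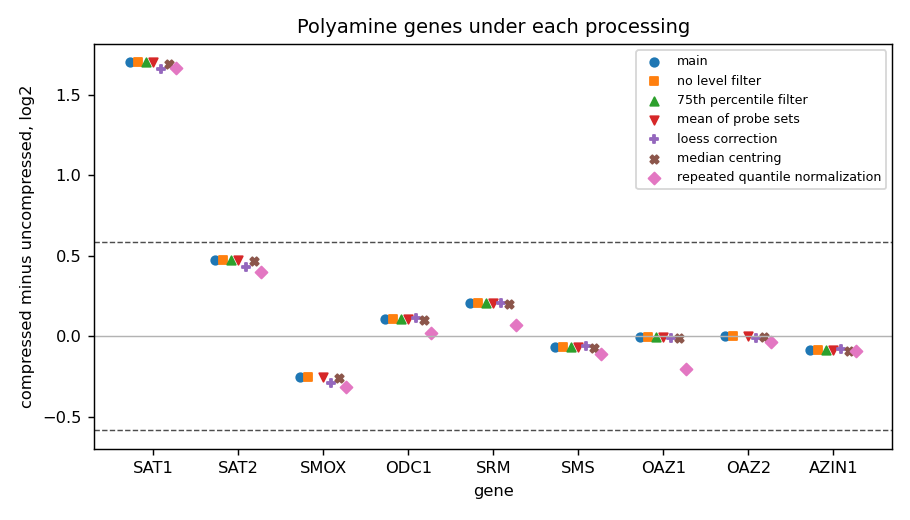
Difference compressed minus uncompressed on the log2 scale (vertical) of each polyamine gene under the main processing and 6 alternatives (symbols), with dashed lines at 1.5-fold. SAT1 stays between 1.66 and 1.70 and the other 8 genes stay inside the dashed lines; SMOX and OAZ2 have no value under the 75th percentile filter, which they do not pass.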

How the data were processed

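RNA of 1 uncompressed and 1 compressed AsPC-1 culture was measured on 2 arrays. The authors deposited log2 signals; the submitters' processing notes name RMA and the Transcriptome Analysis Console. RMA equalises the arrays by quantile normalization, so a change shared by all genes is removed, and it compresses differences near background. The build and tool versions were not given in the sources used here, and no detection calls were used. Groups came from the treatment label.

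Platform annotation named 16098 of 53617 probe sets with 1 gene each, and all 16098 matched RefSeq (GRCh38.p14) by gene identifier. A gene with several probe sets was given its brightest. The 9 genes, the lists, the motifs and the rules were chosen with earlier results of these data known. Named were all 9 genes and the 6 genes nearest to SAT1. In each list, up to the 4 largest differences in each direction and any gene past 1.5-fold were named. The markers, MAX, PPARG and some listed genes without a named probe set were named beside them. The 1.5-fold rule was tried on simulated differences, which gives no error rate for these arrays. The alternatives were other level filters, the mean of probe sets, loess correction (span 0.3), median centring, repeated quantile normalization and sizes of 2-fold and 0.32 on the log2 scale. Promoter windows were the 250 bases before RefSeq starts. Python 3.11.15, NumPy 2.4.6, pandas 2.3.3, statsmodels 0.14.6 and matplotlib 3.10.9 were used.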

Additional observations from a re-analysis of the deposited data

How the results depend on the processing

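SAT1 kept its call under the 6 alternatives of filter and normalization, and the other 8 polyamine genes had no call wherever they gave a value; SMOX and OAZ2 gave none with the 75th percentile filter. The filters and the mean of probe sets cannot move a value read by 1 probe set, so loess correction, median centring and repeated quantile normalization are the alternatives that bear on these values. OAZ1 was at -0.21 after repeated quantile normalization. At a smaller size of 0.32 on the log2 scale, 2 polyamine genes (SAT1 and SAT2) were higher, beside 13.5% of all kept genes. Over all kept genes, 560 were higher and 421 lower with no level filter, 137 and 30 with the 75th percentile filter, 71 and 6 at 2-fold, and 1005 and 616 at the smaller size. The number of transcription factors at least 1.5-fold higher fell to 0 after loess correction and to 0 after repeated quantile normalization, where MXD1 was at 0.56 and 0.53. With the 75th percentile filter the median of the transport list was 0.34, over fewer genes. Leaving out SAT1, an alternative added after seeing the data, gave a median of -0.0034 for the other 8 genes. Counting protein-coding genes alone, also added then, kept both counts of all kept genes within 1.5 times. Other causes were not tested. No paired analysis was possible because each group has 1 array, and leaving out an array leaves no comparison. The number of arrays limits the precision, and signal over background is unknown.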

Other observations

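The motif letters searched in the polyamine promoters were also counted over all kept genes with a RefSeq window. Of 2356 kept genes with a metal response element core in either form, 3.44% passed 1.5-fold as higher under compression, and of 3528 without one, 3.66%. For the E-box these shares were 2.40% of 666 genes and 3.72% of 5218, and for the antioxidant response element core 3.66% of 930 and 3.55% of 4954. The AP-1 site had the widest gap of the 7 motifs in this share, with 7.30% of 315 genes that hold it and 3.36% of 5569 that do not. Of the 7 polyamine genes that were searched, OAZ2 holds an AP-1 site, at -241 to -235, and its values on the arrays were equal. These shares come from 1 array a condition and carry no test. Among the 6 genes nearest to SAT1 in difference, THBS1 alone had a window, and it held 2 metal response element cores. The rest, MT1G included, had no window to search. THBS1 was picked by its difference, and 2356 kept genes hold such a core, so its match is a description.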
